A study of Mus musculus with 5 samples.

Results

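Dermal dendritic cells that carry the C-type lectins Cd209a (a mouse DC-SIGN family receptor) and Mgl2 (CD301b) were described in single-cell RNA-seq of mouse skin. They were chosen by the values of 14 genes in each cell. Among barcodes with at least 200 genes and under 20% of UMIs (unique molecular identifiers, counted RNA molecules) from mitochondrial genes, a cell was taken when H2-Aa, H2-Ab1, H2-Eb1 and Cd74 made up at least 1% of its UMIs and Cd209a and Mgl2 together had at least 2. It also had at most 1 UMI of Ccr7 and Fscn1, at most 2 of C1qa, C1qb and C1qc, at most 1 of Cd207 and 0 of Cd3e and Cd3g. The rule found 144 cells among the 11942 barcodes kept in all 5 libraries, and among the 8164 of the 3 libraries compared here. Of these Cd209a Mgl2 cells, 30 came from untreated dermis, 79 from imiquimod-treated dermis and 35 from lesional skin.

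The untreated dermis was from wild-type C57BL/6 mice of 10 weeks. The imiquimod dermis was from C57BL/6 wild-type mice of the same age whose ear received imiquimod, an agonist of Toll-like receptor 7, on 5 consecutive days. The lesional library was whole skin, not dermis, of K5. Pp6fl/fl mice of 18 weeks, which the sample labels put on the C57BL/6 background with no treatment. As background, mice of this name lack the catalytic subunit of protein phosphatase 6 in keratinocytes, through a Cre driven by a keratin promoter, and the dendritic cells are not the targeted cells; the labels do not describe the driver. Epidermis of untreated wild-type mice and non-lesional epidermis from K5. Pp6fl/fl mice, both of 10 weeks, gave the other 2 libraries. Every suspension was made by enzyme digestion and cleared of dead cells by flow cytometry. Each group is 1 library and the number of mice pooled is not given in the labels, so no difference could be checked against replicates or tested between groups. Lesional skin differs from both dermal libraries in genotype, age and tissue layer together, and from imiquimod dermis also in treatment, and these cannot be told apart. By Xist and Y-linked transcripts of the cells, given below, the mix of sexes differed as well and cannot be told apart from the rest. The labels name no body site for the untreated dermis or the lesional skin, so a difference of site cannot be told apart from the other differences.

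Conventional dendritic cells take up antigen in the dermis, load peptides on MHC class II and carry them to the lymph node once they switch on Ccr7 and Fscn1. The type 2 conventional dendritic cells, marked by Irf4, Klf4, Sirpa and, in skin, by Mgl2 and Cd209a, are the main dermal population and prime CD4 T cells. Monocytes that enter inflamed skin can take on MHC class II and some of the same lectins, and resident dermal macrophages also carry Cd209 family genes, so the boundary between these cells is gradual.

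MHC class II loci share a promoter architecture in which X and Y box elements recruit the RFX and NF-Y proteins, and the coactivator CIITA acts on that platform. The 140 bases before the RefSeq start of 4 class II genes are shown. Transcripts of H2-DMb2, H2-DMb1 and H2-Oa did not move alike in the Cd209a Mgl2 cells. H2-Eb1 is a gene of the rule, so its level belongs to the choice, and it is shown only as a classical gene. Capitals mark the letters GATTGG or CCAATC (the core of a Y box, on either strand) and AACNGATG or CATCNGTT (letters of an X box), which do not overlap.
H2-DMb2, GRCm38.p6 chr17:34145109-34145248, plus strand: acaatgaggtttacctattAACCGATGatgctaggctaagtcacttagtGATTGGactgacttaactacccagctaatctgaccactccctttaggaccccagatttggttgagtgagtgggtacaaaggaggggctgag
H2-DMb1, GRCm38.p6 chr17:34153051-34153190, plus strand: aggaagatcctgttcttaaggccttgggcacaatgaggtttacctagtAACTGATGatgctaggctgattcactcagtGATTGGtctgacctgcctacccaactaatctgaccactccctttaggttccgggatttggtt
H2-Eb1, GRCm38.p6 chr17:34305727-34305866, plus strand: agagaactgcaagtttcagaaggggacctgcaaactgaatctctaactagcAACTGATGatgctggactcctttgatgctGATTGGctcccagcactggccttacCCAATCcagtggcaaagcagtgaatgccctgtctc
H2-Oa, GRCm38.p6 chr17:34092239-34092378, plus strand: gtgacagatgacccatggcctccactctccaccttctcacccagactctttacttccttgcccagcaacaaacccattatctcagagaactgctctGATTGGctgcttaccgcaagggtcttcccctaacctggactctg
By GENCODE vM21 on the same build, Ciita lies at chr16:10480059-10528418, Cd209a at chr8:3743397-3748984 and Mgl2 at chr11:70130329-70137550 beside Clec10a at chr11:70156197-70170834. H2-DMb2 and H2-DMb1, the paralogous beta chains of the DM peptide exchanger, and H2-Eb1, a classical beta chain, held both sets of letters. H2-Oa, the alpha chain of DO, which restrains DM, held only the Y box letters in this window. Of 32851 RefSeq promoter windows of this length, 10.5% held the Y box letters, 1.06% the X box letters and 0.0944%, or 31 windows, held both. A match is a description of the letters and says nothing of binding.

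Levels are given as CPM, the UMIs of a gene summed over the Cd209a Mgl2 cells of a library per 1000000 UMIs of those cells. Intervals in brackets are exact 95% intervals that cover counting error only. A gene counted as measured in a comparison with 20 UMIs or more in the pair of libraries together and a level of 50 CPM or more in 1 of them. It was called when the whole interval of its ratio exceeded a 1.5-fold difference, upward (higher) or downward (lower). Of 2545 genes measured between imiquimod and untreated dermis, 204 (8.02%) were called higher and 237 (9.31%) lower in imiquimod cells. Between lesional skin and untreated dermis, 212 of 2764 (7.67%) were higher and 133 (4.81%) lower in lesional cells. Between lesional skin and imiquimod dermis, 386 of 2722 (14.2%) were higher and 210 (7.71%) lower. The first pair of comparisons share the untreated library, and are given side by side only. Counts of list genes below are to be read beside these shares, and some are near them.

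T cells of the same libraries, taken as barcodes with at least 2 UMIs of Cd3e and Cd3g, moved past 1.5-fold the same way for 144 of the 204 genes higher after imiquimod (70.6%) and for 172 of the 237 lower (72.6%). The shares were 60.4% and 80.5% for lesional against untreated cells and 73.6% and 83.8% for lesional against imiquimod cells. These T-cell moves were read from the ratio alone, with no minimum count and no interval. A gene with no T-cell UMI in only 1 library of a pair thus counted as a move. The share of all measured genes for which T cells moved is not given here. T-cell levels are printed beside most of the results. Their part in the results was not tested. The median log2 ratio of all measured genes was 0.10, 0.16 and 0.10 in the 3 comparisons. After division by the median ratio the split between lesional and untreated cells became 145 higher and 185 lower. With totals that leave out mitochondrial, ribosomal protein and haemoglobin genes, the split between lesional and imiquimod cells became 379 higher and 316 lower.

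Ciita, the master coactivator of class II transcription, stood at 19.5 CPM in untreated cells, 122 in imiquimod cells and 200 in lesional cells. It was in 5 of 30 untreated, 50 of 79 imiquimod and 30 of 35 lesional cells. The untreated library was the low one, and the T cells of the 3 libraries lay at 11.5, 7.13 and 9.02 CPM. The rise after imiquimod was not particular to the Cd209a Mgl2 cells. From untreated to imiquimod dermis, Ciita went from 19.1 to 46.4 CPM in C1q cells and from 15.9 to 49.8 in Ccr7 cells, class II populations defined below. Nor was a high level in lesional skin. There the highest Ciita level among the other cell types compared was 137 CPM, beside 200 in the Cd209a Mgl2 cells. Ciita was 6.27-fold higher after imiquimod (2.61 to 19.7) and 10.3-fold higher in lesional skin (4.25 to 32.3) than in untreated cells, on 5 untreated UMIs. The inflamed libraries differed from each other by 1.64-fold (1.24 to 2.16), which was not called. With every cell thinned to 2000 UMIs, Ciita was detected in 7.41% of 27 untreated cells (0.910 to 24.3), 18.2% of 77 imiquimod cells (10.3 to 28.6) and 41.2% of 34 lesional cells (24.6 to 59.3). At that depth the intervals of untreated and imiquimod cells overlap. T cells thinned in the same way gave 1.25%, 0.651% and 1.71%.

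H2-DMb2 was at 35.1 CPM in untreated, 205 in imiquimod and 101 in lesional cells, against 3.82, 13.2 and 0.475 in T cells. It was 5.84-fold higher after imiquimod (3.01 to 13), while the 2.88-fold difference of lesional from untreated cells (1.40 to 6.66) was not called. H2-DMb1, its paralog with a similar promoter, was at 1175, 1173 and 1338 CPM, and H2-DMa, the partner chain of both, at 1358, 1303 and 1233 CPM. Neither was called in any comparison. The last 500 bases of H2-DMb2 share no 50-base stretch with H2-DMb1, so reads of the pair can be separated. H2-Oa had no UMI in the 30 untreated cells, 49 in 30 of 79 imiquimod cells and 14 in 9 of 35 lesional cells. This is 0, 52.6 and 28.3 CPM, against 0, 4.93 and 4.75 in T cells. With untreated cells set to a floor of 3 UMIs, H2-Oa was at least 4.49-fold higher in imiquimod cells, and the exact interval of the ratio began at 3.52-fold. Other class II cells rose too from untreated to imiquimod dermis. H2-DMb2 went from 19.1 to 87.1 CPM in C1q cells and from 58.3 to 303 in Ccr7 cells. H2-Oa went from 0 to 25.7 CPM in C1q cells and from 5.30 to 71.8 in Ccr7 cells. Both genes were higher in imiquimod Ccr7 cells than in imiquimod Cd209a Mgl2 cells.

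Processing enzymes had other patterns. Lgmn, the lysosomal asparaginyl endopeptidase, was at 363, 166 and 144 CPM, 2.18-fold lower after imiquimod and 2.53-fold lower in lesional skin than untreated, where T cells held 296, 259 and 47.5 CPM. The cathepsin Ctss, which trims the invariant chain, was at 1674, 1464 and 1520 CPM and was not called. In all, 3 of 8 measured class II presentation genes were higher and 1 lower after imiquimod, against 1 and 1 of 7 in lesional skin and 0 and 0 of 8 between the inflamed libraries. The median log2 ratios were 0.14, 0.19 and -0.01. Genes of the rule are outside these counts. Their levels are a description of the choice: H2-Ab1 was at 16030, 11772 and 13583 CPM in untreated, imiquimod and lesional cells.

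The lectins that chose the cells differed in dose and in mix. Cd209a was at 445 CPM (367 to 534) in untreated, 246 (215 to 280) in imiquimod and 1122 (1031 to 1218) in lesional cells. Mgl2, a galactose-type lectin, was at 1537 (1389 to 1697), 347 (310 to 387) and 1227 (1132 to 1329) CPM. These are values of the choice itself. Both lectins were found in 22 of 30 untreated, 33 of 79 imiquimod and 24 of 35 lesional cells. Mgl2 alone was found in 5, 24 and 1 cells, and Cd209a alone in 3, 22 and 10. The median cell held 15, 5 and 25 lectin UMIs, and 15 imiquimod cells sat exactly at the limit of 2 UMIs, against 0 untreated and 2 lesional cells. Just outside it, with 1 lectin UMI, lay 4, 36 and 7 cells. At the C1q limit, 19, 60 and 6 cells had 1 or 2 C1q UMIs and 8, 47 and 2 just outside had 3 to 5. The lowest class II band inside the rule, 1 to 2% of UMIs, held 1, 5 and 0 cells, and the band from 0.5 to 1% outside it held 1, 2 and 1.

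Some lectin signal lay outside these cells. Of T cells, 13.2% of 91 in untreated dermis (7.0 to 21.9), 1.22% of 327 in imiquimod dermis and 0.792% of 379 in lesional skin reached 2 lectin UMIs. The median T cell had 0 in each library, and up to 42 UMIs stood in a single untreated T cell. Summed over T cells, Mgl2 was at 222, 11.5 and 9.49 CPM and Cd209a at 57.3, 3.29 and 2.37 CPM. At 10 lectin UMIs or more, 20 of 30 untreated, 17 of 79 imiquimod and 28 of 35 lesional Cd209a Mgl2 cells remained, against 3, 2 and 1 T cells.

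The cells made up 5.76% of kept barcodes in untreated dermis (3.92 to 8.12), 1.58% in imiquimod dermis (1.26 to 1.97) and 1.32% in lesional skin (0.921 to 1.83). As a share of all cells with class II at 1% of UMIs or more they were 20.4% of 147 (14.2 to 27.8), 8.14% of 970 (6.5 to 10.0) and 14.4% of 243 (10.2 to 19.5). Dissociation, the sort and the tissue layer can set these shares. Neither epidermal library held such a cell: 0 of 905 barcodes of untreated epidermis allows a share of up to 0.331% by the limit of 3 counts and 0.407% by the exact interval, and 0 of 2873 of non-lesional epidermis up to 0.104% and 0.128%. The median Cd209a Mgl2 cell had 8408.5 UMIs in untreated, 11226 in imiquimod and 13940 in lesional skin. Their summed depth was 256271, 931706 and 494606 UMIs, which makes the untreated values the least precise. Lesional cells carried Xist in 18 of 35 and a Y-linked transcript in 12 of 35, 2 of them with both, so that library held more than 1 mouse. Imiquimod and untreated cells had Xist in 0 cells and a Y-linked transcript in 51 of 79 and 18 of 30. Sex is thus a further difference between lesional skin and both dermal libraries.

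**Figure D1:**
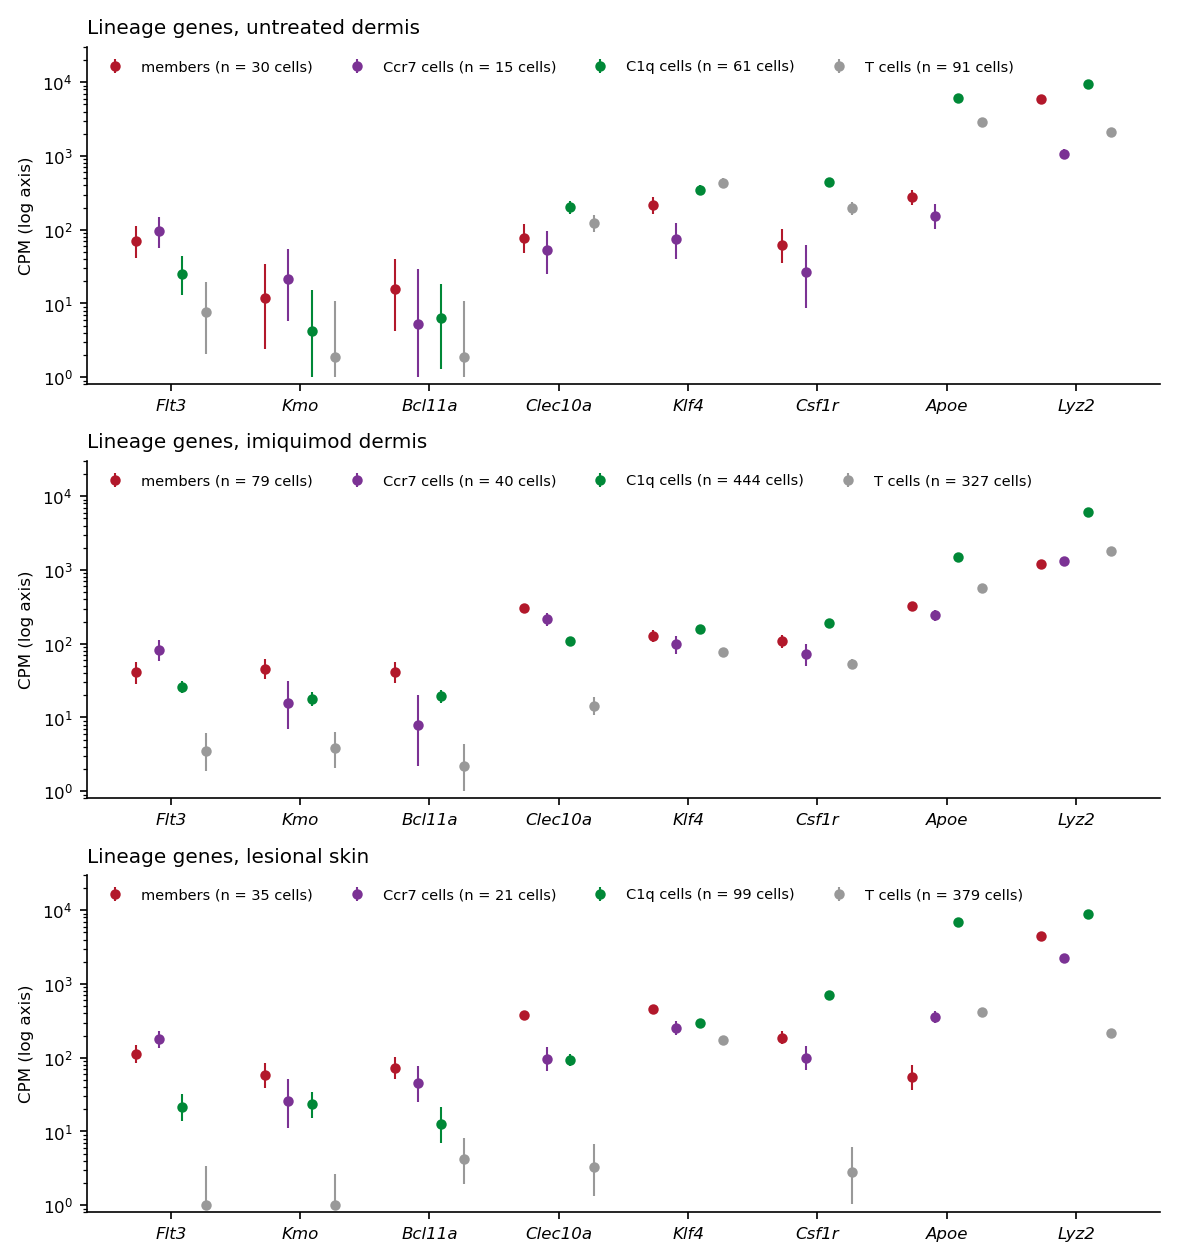
Levels of 8 lineage genes, in CPM on a log axis, in the Cd209a Mgl2 cells (members), Ccr7 cells, C1q cells and T cells of each library, with exact Poisson 95% intervals that cover counting error only; values under 1 CPM are drawn at 1. Flt3 stands above T cells in all 3 libraries, while untreated Clec10a, at 78.0 CPM, stands beside the 122 CPM of its T cells.

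The dendritic-cell identity of the label was checked against genes the rule did not use. Flt3, the cytokine receptor that maintains dendritic cells, was at 70.2 CPM in untreated, 40.8 in imiquimod and 113 in lesional cells, found in 9 of 30, 22 of 79 and 21 of 35 cells. T cells were at 7.65, 3.56 and 0.949 CPM, so Flt3 exceeded them in every library, by 9.19-fold (3.03 to 37.3), 11.4-fold (5.96 to 23.4) and 119-fold (31.5 to 1009). Zbtb46, a transcription factor of conventional dendritic cells, was at 42.9, 10.7 and 12.1 CPM, on 11, 10 and 6 UMIs. It too exceeded T cells, with lower limits of 1.98, 2.15 and 1.01-fold. The whole list of pan-dendritic genes did not stand apart in the same way. Its 12 genes summed to 1143, 1246 and 1128 CPM in the Cd209a Mgl2 cells and to 1114, 994 and 1351 in T cells. The 17 type 2 dendritic-cell genes outside the rule summed to 1795, 2569 and 3540 CPM, against 2288, 1421 and 1760 in T cells. In untreated dermis the Cd209a Mgl2 cells thus lay below T cells for that list. After thinning to 2000 UMIs, 4 of 27 untreated, 11 of 77 imiquimod and 6 of 34 lesional cells held a UMI of Flt3, Zbtb46, Kmo or Bcl11a and of none of Ly6c2, Fcgr1, Adgre1, Mrc1 and Cd163, which monocytes or macrophages carry. The reverse was found in 11, 22 and 13 cells, more than the first kind in each library, and neither set was detected in 11, 40 and 10. The label of dendritic cell rests here on the sums of Flt3 and Zbtb46, not on single cells. Flt3 did not follow the lectins in imiquimod dermis. It was at 91.0 CPM in the 15 cells at the limit of 2 lectin UMIs, and at 123 in the 36 cells just outside with 1. In untreated dermis and lesional skin, the 4 and 7 cells with 1 lectin UMI held less Flt3 than the Cd209a Mgl2 cells, at 42.3 and 63.0 CPM. Flt3 was 2.78-fold higher in lesional than in imiquimod cells (1.81 to 4.31) and was not called against untreated cells in either library.

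C1q cells of the same libraries (class II cells with at least 3 C1q UMIs, 61 in untreated dermis, 444 in imiquimod dermis and 99 in lesional skin) held less Flt3, at 25.5, 26.0 and 21.7 CPM. Apoe, the lipid carrier that resident macrophages express, was at 6089, 1520 and 6864 CPM in C1q cells, against 277, 322 and 54.6 in the Cd209a Mgl2 cells and 2880, 577 and 422 in T cells. Ccr7 cells (at least 2 UMIs of Ccr7 and Fscn1, 15, 40 and 21 cells) held Flt3 at 95.5, 81.7 and 178 CPM. Ccl22, a chemokine of mature dendritic cells, was at 2387, 981 and 690 CPM in them and at 27.3, 8.59 and 0 CPM in the Cd209a Mgl2 cells. These 3 populations are cut from 1 range by thresholds, so the differences in C1q, Ccr7 and Fscn1 belong to the choice.

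Type 2 dendritic-cell genes were called higher more often than lower in both inflamed libraries. Outside the rule's own genes, 7 of 14 measured were higher and 2 lower after imiquimod, with a median log2 ratio of 1.02, and 6 of 13 were higher and 0 lower in lesional skin, with a median of 1.11. T-cell medians for the same genes were 0.03 and -0.69. The 6 genes higher in lesional skin include Epcam, an adhesion molecule that is also on the list of Langerhans cell genes. It had 0 UMIs in untreated and 38 in lesional cells, 30 of them in 3 cells. Clec10a, the CD301a lectin, was at 78.0, 307 and 378 CPM, in 12 of 30, 52 of 79 and 27 of 35 cells. It was 3.93-fold higher after imiquimod (2.5 to 6.54) and 4.84-fold higher in lesional skin (3.05 to 8.11), and T cells were at 122, 14.5 and 3.32 CPM. Mgl2 and Clec10a share 8.52% of their 50-base stretches near the 3′ end, so a few reads could be placed on either gene. Sirpa, an inhibitory receptor of type 2 dendritic cells and macrophages, was at 66.3, 176 and 196 CPM, 2.65-fold higher after imiquimod (1.61 to 4.67) and 2.96-fold in lesional skin (1.75 to 5.28), and T cells were at 30.6, 57.6 and 13.8.

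Irf4 was at 70.2, 7.51 and 38.4 CPM, on 18, 7 and 19 UMIs, and was 9.35-fold lower after imiquimod. T cells, which use Irf4 themselves, stood at 26.8, 17.0 and 45.6 CPM. Klf4 was at 215, 128 and 457 CPM, and lesional cells were 2.13-fold above untreated (1.58 to 2.91) and 3.58-fold above imiquimod cells (2.85 to 4.51). Klf4 is also an early response gene, and T cells of the 3 libraries held 436, 76.5 and 173 CPM. Ffar2, a receptor for short-chain fatty acids, had no UMI in untreated cells, 173 UMIs in 48 of 79 imiquimod cells and 22 UMIs in 7 of 35 lesional cells. With untreated cells set to the floor of 3 UMIs that was at least 15.9-fold higher after imiquimod, and the exact interval of the ratio began at 12.8-fold. Ffar2 was 4.17-fold lower in lesional than in imiquimod cells. T cells held 0, 26.9 and 1.42 CPM of Ffar2, which is far below the 186 CPM of imiquimod cells.

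Pan-dendritic genes were higher in the lesional library for 4 of 8 measured and lower for 1 against untreated cells (median log2 ratio 1.26), and higher for 3 of 8 against imiquimod cells (median 0.52). Imiquimod against untreated cells gave 1 higher and 0 lower of 4, with a median of -0.02. The 12 pan-dendritic genes summed were not higher in lesional skin, at 1143 CPM in untreated, 1246 in imiquimod and 1128 in lesional cells. Zbtb46 stayed under the 50 CPM minimum and is not in these counts. It was at 42.9 CPM in untreated, 10.7 in imiquimod and 12.1 in lesional cells. Kmo, a kynurenine pathway enzyme, was at 11.7, 46.2 and 58.6 CPM, 5.01-fold higher in lesional than in untreated cells (1.55 to 25.7), with T cells at 1.91, 3.84 and 0.475. Bcl11a, a transcription factor needed for dendritic-cell development, was at 15.6, 41.9 and 72.8 CPM, 4.66-fold higher in the same comparison (1.67 to 18.0), with T cells at 1.91, 2.19 and 4.27. Itgax, the CD11c integrin chain, was at 27.3, 38.6 and 101 CPM, 3.70-fold higher in lesional than in untreated cells (1.67 to 9.68), and T cells were at 1.91, 3.56 and 9.97 CPM. Itgam, its CD11b counterpart, was at 50.7, 90.2 and 115 CPM and was not called in any comparison. The type 1 dendritic-cell marker Xcr1 had 0, 0 and 1 UMI.

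**Figure D2:**
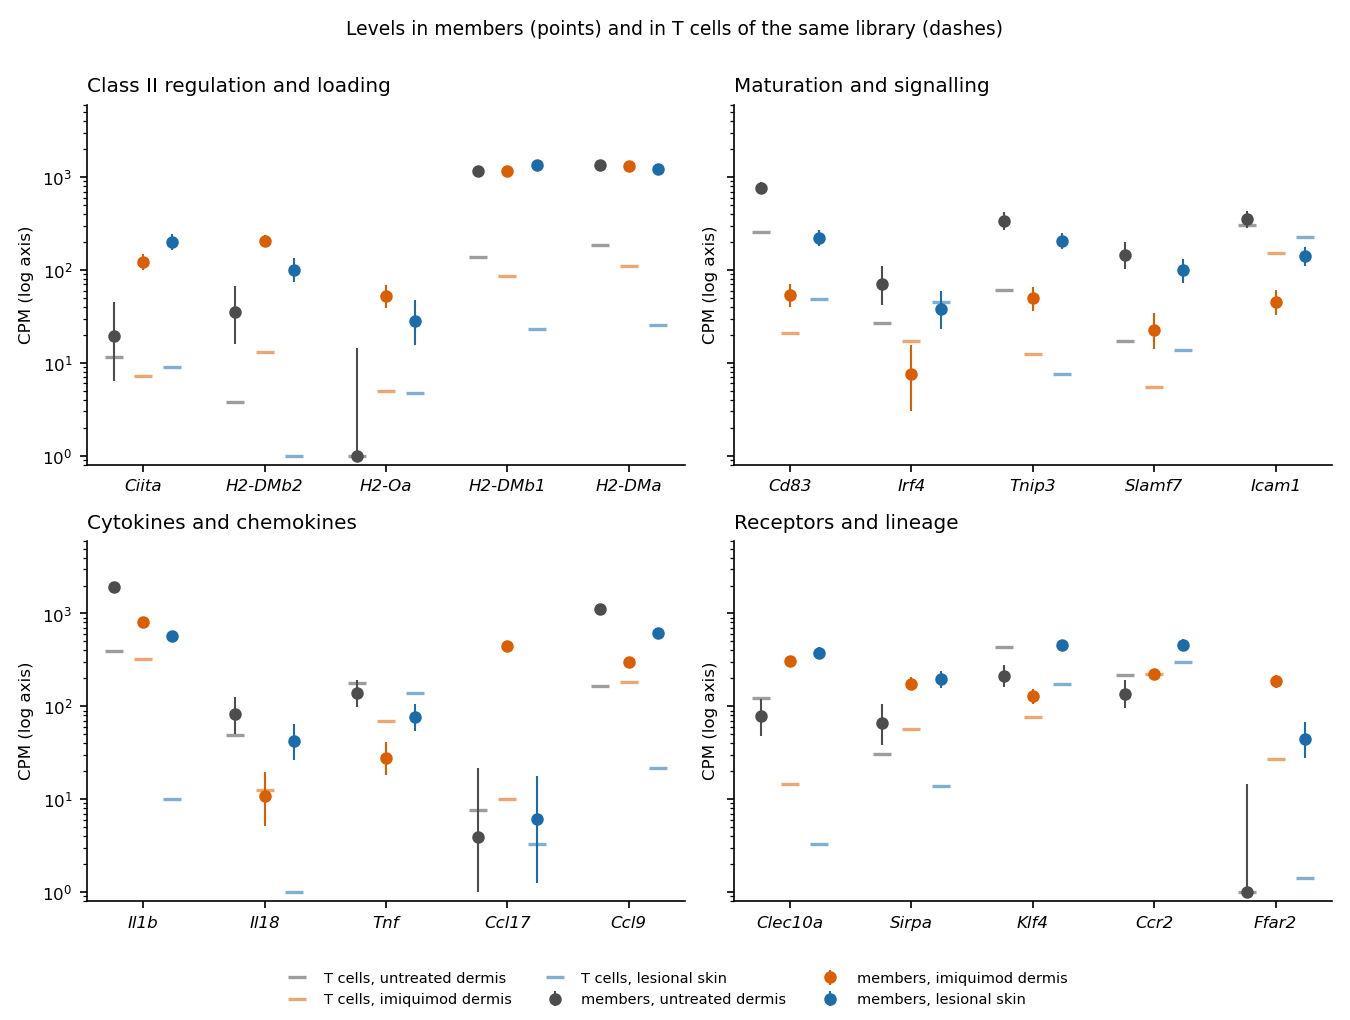
Levels of 20 genes, in CPM on a log axis, in the Cd209a Mgl2 cells (members, points with exact Poisson 95% intervals that cover counting error only) and in T cells (dashes) of the 3 libraries; values under 1 CPM are drawn at 1. Ciita stands at 19.5 CPM in untreated and at 122 and 200 CPM in the inflamed libraries, and Cd83 at 769, 53.7 and 222 CPM.

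Cd83, Slamf7 and Icam1, genes of activated dendritic cells, had their highest level in untreated cells. Cd83, which stabilises class II and CD86 at the surface, was at 769 CPM in untreated, 53.7 in imiquimod and 222 in lesional cells. It was 14.3-fold lower after imiquimod and 3.46-fold lower in lesional skin, and T cells were at 256, 20.8 and 48.4 CPM. Slamf7, a homotypic receptor, was at 144, 22.5 and 99.1 CPM, 6.41-fold lower after imiquimod, and Icam1, the adhesion ligand of LFA-1, was at 351, 45.1 and 142 CPM, 7.79-fold lower. T cells held 304, 153 and 224 CPM of Icam1 and 17.2, 5.48 and 13.8 of Slamf7. Of 9 measured costimulators and checkpoints, 1 was higher and 5 lower after imiquimod, with a median log2 ratio of -1.37 against -1.08 in T cells. Lesional cells had 1 higher and 2 lower of 10 against untreated, and 4 higher and 0 lower of 9 against imiquimod cells. The 1 of 10 higher is near the 7.67% of all measured genes that were higher in lesional against untreated cells. The principal ligand Cd86 was at 109, 75.1 and 105 CPM and was not called, Cd40 was at 46.8, 23.6 and 24.3 CPM, and Pdcd1lg2 had only 4, 5 and 2 UMIs.

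Il1b, Il18 and Tnf, inflammatory cytokines, also had their highest summed level in untreated cells. Il1b was at 1912, 807 and 576 CPM, in 22 of 30, 68 of 79 and 25 of 35 cells, and was 2.37-fold lower after imiquimod and 3.32-fold lower in lesional skin. T cells held 398, 326 and 9.97 CPM. Of the 490 untreated Il1b UMIs, 364 lay in 4 of 30 cells, and the median cell held 1 Il1b UMI in untreated, 3 in imiquimod and 2 in lesional skin. Il18 was at 81.9, 10.7 and 42.5 CPM, with T cells at 49.7, 12.6 and 0. Tnf was at 140, 27.9 and 76.8 CPM, with 69.4% of the untreated UMIs in 1 cell, and T cells were at 180, 69.9 and 138. Both were lower after imiquimod, by 7.63-fold and 5.03-fold. In all 1 cytokine was higher and 3 were lower of 6 measured after imiquimod, with a median of -1.21. Il23a, the IL-23 subunit of the type 17 axis, had 2, 3 and 5 UMIs in all, and Tlr7, the imiquimod receptor, had 1, 3 and 0. At this depth no difference in Il23a or Tlr7 was detectable.

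Among NF-kB subunits and feedback genes, none of 17 measured was higher and 4 were lower after imiquimod (median -0.71, T cells -0.74), 0 and 1 of 17 in lesional against untreated cells, and 5 and 0 of 14 in lesional against imiquimod cells (median 0.70, T cells 0.53). The 1 of 17 lower is near the 4.81% of all measured genes that were lower in lesional against untreated cells. Tnip3, a feedback inhibitor of NF-kB, was at 339, 49.4 and 206 CPM, 6.88-fold lower after imiquimod, with T cells at 61.2, 12.3 and 7.59 CPM. Rel, the c-Rel subunit, was 3.04-fold lower after imiquimod and Tnfaip3, the A20 deubiquitinase, 3.27-fold lower. In T cells Rel stood at 0.411 and Tnfaip3 at 0.325 of the untreated level.

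**Figure D3:**
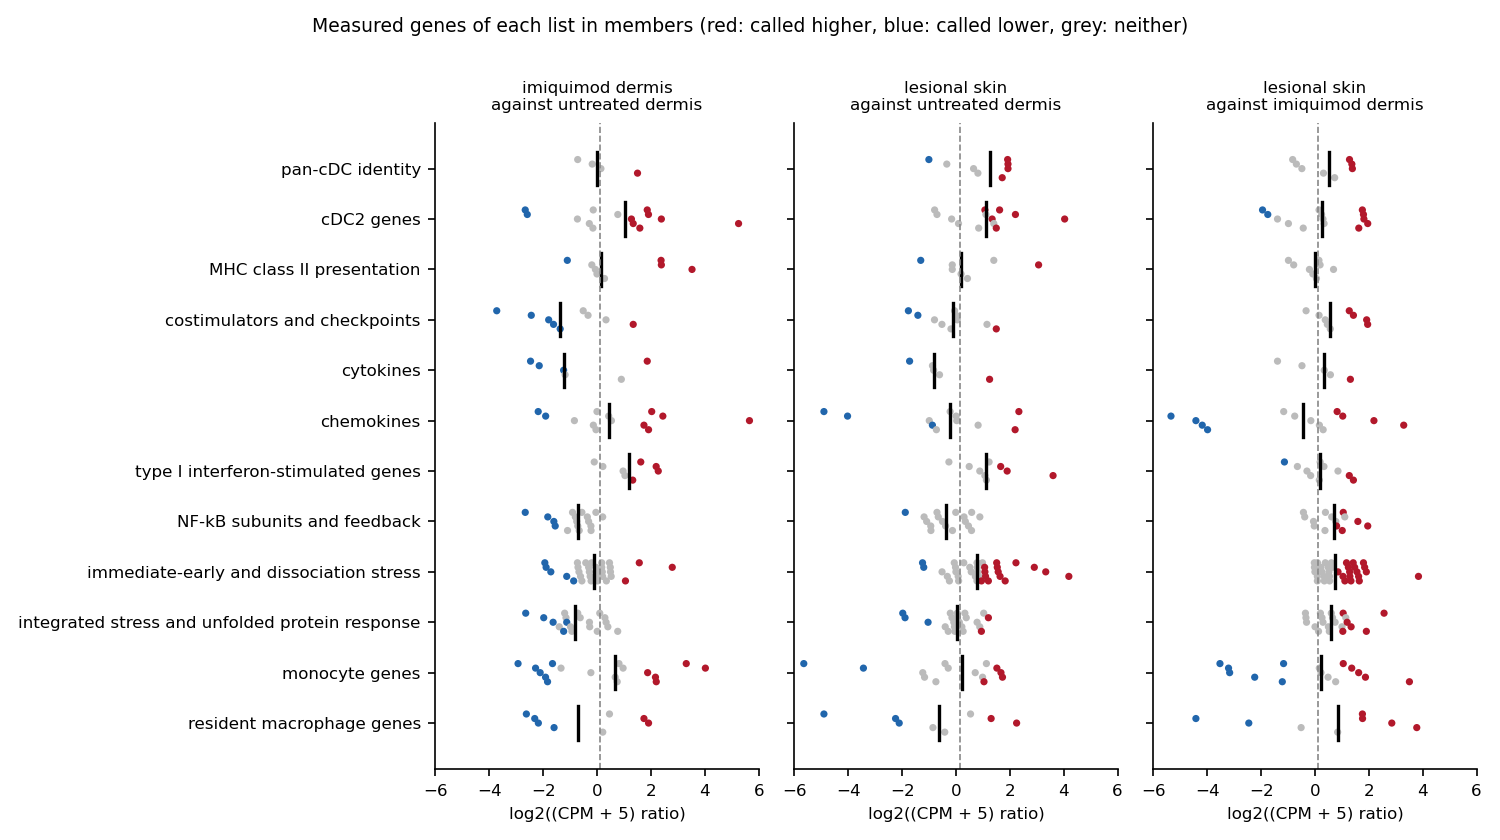
Log2((CPM + 5) ratio) of each measured gene of 12 lists in the Cd209a Mgl2 cells, for the 3 comparisons; red points are called higher, blue lower and grey neither. Black bars are list medians and the dashed line the median of all measured genes (0.10, 0.16 and 0.10); type 2 dendritic-cell genes lie at 1.02 and costimulators at -1.37 after imiquimod.

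Monocyte genes were called in both directions. After imiquimod 5 of 17 measured were higher and 6 lower. Plac8, found in Ly6C-high monocytes, was at 97.6 CPM in untreated, 466 in imiquimod and 198 in lesional cells, and T cells at 1.91, 299 and 40.8 CPM. It was 4.77-fold higher after imiquimod (3.19 to 7.46). S100a4, a calcium-binding protein of motile myeloid cells, was 3.68-fold higher after imiquimod (3.36 to 4.05), at 1904, 7016 and 3126 CPM, with T cells at 2619, 4408 and 2409. Lyz2, the myeloid lysozyme, was at 5927, 1216 and 4468 CPM. It was 4.87-fold lower after imiquimod, where the Cd209a Mgl2 cells lay below T cells at 1805 CPM. In lesional skin 1 cell held 972 of the Lyz2 UMIs.

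Lesional cells had 4 higher and 2 lower of 14 monocyte genes against untreated cells. Ccr2, the receptor that brings monocytes and type 2 dendritic cells into skin, was at 137, 221 and 463 CPM, 3.39-fold higher in lesional than in untreated cells (2.37 to 4.99), with T cells at 220, 220 and 297. Csf1r, the M-CSF receptor, was at 62.4, 108 and 188 CPM, 3.01-fold higher in lesional than in untreated cells (1.76 to 5.49), and T cells were at 197, 53.5 and 2.85. Ly6c2, the Ly6C surface marker of classical monocytes, was at 137, 116 and 8.09 CPM, 16.9-fold lower in lesional than in untreated and 14.3-fold lower than in imiquimod cells. T cells held 11.5, 101 and 93.0 CPM of Ly6c2, and 65.7% of the untreated UMIs came from 1 of 8 positive cells. Fcgr1, the CD64 receptor of monocyte-derived cells, had 1, 19 and 3 UMIs.

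Cd209d, a Cd209 family lectin, was at 784, 170 and 586 CPM, 4.63-fold lower after imiquimod and 3.46-fold higher in lesional than in imiquimod cells (2.84 to 4.22). T cells held 145, 7.95 and 0 CPM. The haemoglobin scavenger receptor Cd163 was at 62.4, 8.59 and 93.0 CPM, and Adgre1, the F4/80 antigen, at 125, 16.1 and 66.7 CPM, lower after imiquimod by 7.27-fold and 7.76-fold. T cells held 42.0, 12.9 and 0 CPM of Cd163 and 51.6, 29.9 and 5.22 of Adgre1. Mrc1, the mannose receptor, was at 93.7, 131 and 239 CPM, 2.55-fold higher in lesional than in untreated cells (1.63 to 4.13), with T cells at 176, 66.3 and 7.59. The list counted 2 higher and 4 lower of 8 after imiquimod, 2 and 3 of 8 in lesional against untreated cells, and 4 and 3 of 9 between the inflamed libraries. Its median after imiquimod, -0.69, was 0.34 when cells with any C1q UMI were left out.

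Interferon-stimulated genes were higher for 4 of 8 measured after imiquimod and for 3 of 9 in lesional skin, with 0 lower in both, and medians of 1.18 and 1.13. The T-cell medians were 0.77 and 0.47. Ifi27l2a, an interferon-induced mitochondrial protein, was at 85.8, 411 and 334 CPM, with T cells at 124, 470 and 227. Ms4a6d, a tetraspan membrane protein of myeloid cells, was at 70.2, 184 and 233 CPM, 2.61-fold higher after imiquimod (1.6 to 4.51) and 3.31-fold in lesional skin (2.0 to 5.78), while T cells held 49.7, 82.8 and 16.1 CPM. Isg15, a ubiquitin-like modifier, had 1, 37 and 51 UMIs, with 60.8% of the lesional UMIs in 1 cell.

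**Figure D4:**
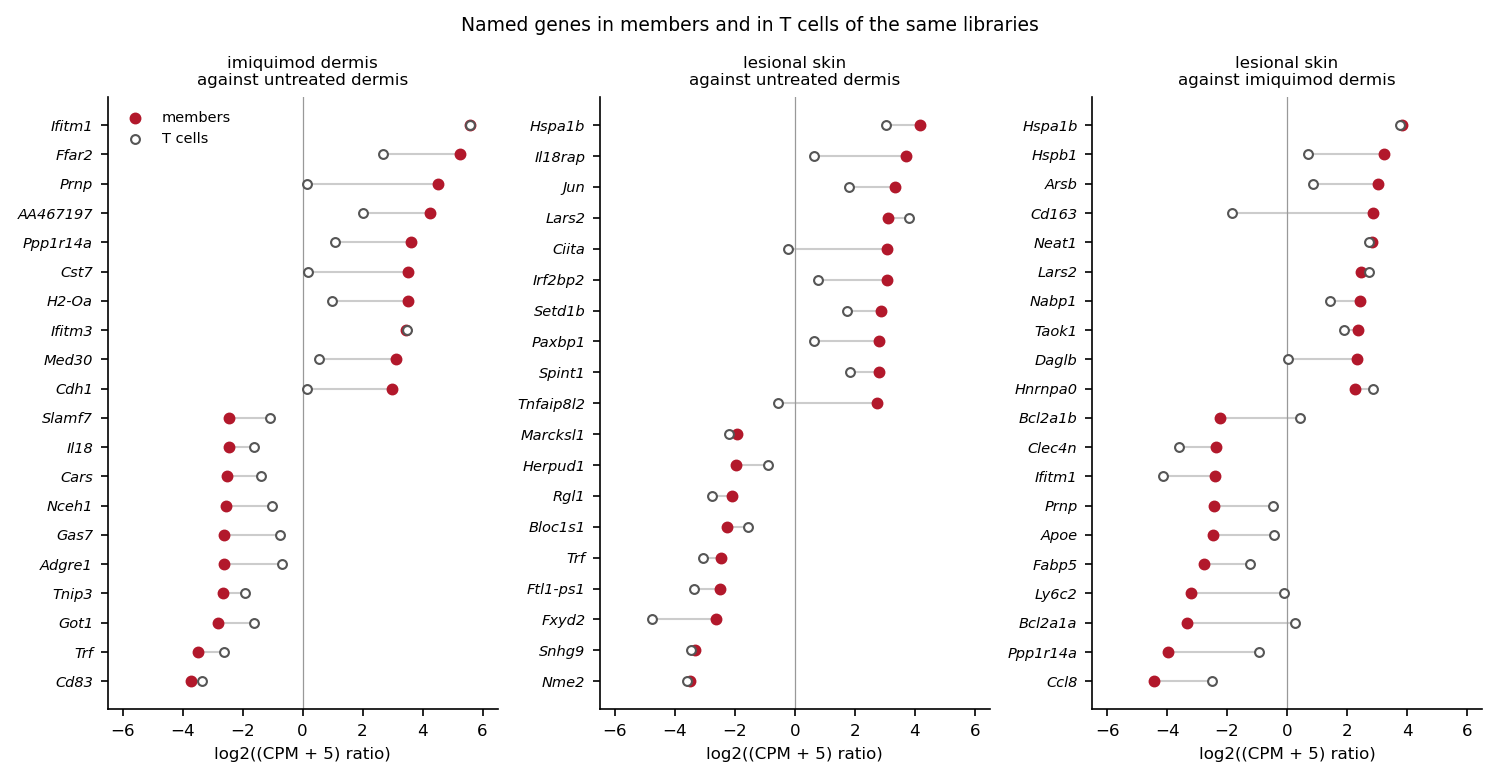
The 10 genes with the highest and the 10 with the lowest ratio by the naming rule, for each of the 3 comparisons, with 9 of the 10 lowest drawn for lesional against untreated cells. Filled points are the Cd209a Mgl2 cells and open points T cells of the same libraries, on the log2((CPM + 5) ratio) axis. Ifitm1 after imiquimod and Hspa1b in lesional against imiquimod cells have both points together, while Ciita and Ffar2 have T cells far from the filled point.

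T cells moved the same way for most of the widest ratios. After imiquimod, Ifitm1, an interferon-induced membrane protein, was 51.7-fold higher (32.6 to 87.3), at 70.2 and 3629 CPM, and T cells were at 9.56 and 689 CPM. Ifitm3, its antiviral neighbour, was 11.0-fold higher (8.56 to 14.5), at 238 and 2626 CPM, and T cells were at 70.7 and 838. Genes that T cells did not share were Prnp, the prion protein, at 0 and 108 CPM against 38.2 and 42.8 in T cells, and Cst7, the inhibitor cystatin F, at 3.9 and 97.7 CPM against 93.7 and 107. Cdh1, the E-cadherin of epidermis and Langerhans cells, was at 3.9 CPM in untreated and 65.5 in imiquimod cells, in 35 of 79, with T cells at 5.73 and 6.85. The others among the 10 highest were Ffar2, AA467197, Ppp1r14a, H2-Oa and Med30, and 7 of the 10 moved past 1.5-fold the same way in T cells. Among those 7, Ffar2, Ppp1r14a and H2-Oa had 0 CPM in untreated T cells. They reached only 26.9, 5.48 and 4.93 CPM in imiquimod T cells. The 10 lowest were Cd83, Trf, Got1, Tnip3, Adgre1, Gas7, Nceh1, Cars, Il18 and Slamf7, and T cells moved the same way for all 10. Trf, the iron carrier transferrin, was at 527 and 42.9 CPM, 12.3-fold lower, against 168 and 23.3 in T cells.

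Fabp5, a fatty acid carrier, was at 254, 1712 and 245 CPM, 6.75-fold higher after imiquimod (5.27 to 8.79) and 7.0-fold lower in lesional than in imiquimod cells. T cells were at 82.2, 603 and 254 CPM, and 20.4% of the imiquimod UMIs of Fabp5 lay in 1 cell. Ppp1r14a, an inhibitor of myosin phosphatase, was at 3.9, 105 and 2.02 CPM, 52.0-fold lower in lesional than in imiquimod cells, and T cells never passed 5.48 CPM. Bcl2a1b, a survival gene, was 4.98-fold lower in lesional than in imiquimod cells, but shares 45.2% and 66.3% of its 3′ stretches with Bcl2a1a and Bcl2a1d, so its count is uncertain.

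Among the genes named by the rule for single genes, Hspa1b had the highest ratio in lesional cells against both other libraries on the log2((CPM + 5) ratio) scale. Hspa1b, the inducible HSP70, was at 784 CPM in untreated, 999 in imiquimod and 14381 in lesional cells, and T cells at 1623, 974 and 13430. It was 18.3-fold higher than in untreated cells (15.9 to 21.2). Jun, the AP-1 subunit, was at 156, 1111 and 1615 CPM, 7.12-fold higher after imiquimod (5.19 to 10.0) and 10.3-fold in lesional skin (7.53 to 14.6), against 312, 499 and 1090 in T cells. Immediate-early and dissociation stress genes were higher for 14 and lower for 2 of 34 in lesional against untreated cells (median 0.79, T cells 0.13), and higher for 17 and lower for 0 of 34 against imiquimod cells (median 0.75, T cells 1.15). After imiquimod they were higher for 3 and lower for 5 of 32. Hspb1, a small heat shock protein, was 9.55-fold higher in lesional than in imiquimod cells (8.19 to 11.2), with T cells at 290 and 178 CPM. Against untreated cells the 10 highest were Hspa1b, Il18rap, Jun, Lars2, Ciita, Irf2bp2, Setd1b, Paxbp1, Spint1 and Tnfaip8l2. Of these, 8 moved the same way in T cells, Spint1 among them from 0 to only 12.8 CPM. The 10 lowest included Nme2, Snhg9, Fxyd2, Ftl1-ps1, Trf, Bloc1s1, Rgl1, Herpud1 and Marcksl1, and T cells moved the same way for all 10. Against imiquimod cells the 10 highest were Hspa1b, Hspb1, Arsb, Cd163, Neat1, Lars2, Nabp1, Taok1, Daglb and Hnrnpa0, with 8 the same way in T cells. The 10 lowest were Ccl8, Ppp1r14a, Bcl2a1a, Ly6c2, Fabp5, Apoe, Prnp, Ifitm1, Clec4n and Bcl2a1b, with 5. Cd163 was 10.8-fold higher (5.06 to 26.6) at 93.0 and 8.59 CPM, and no lesional T cell held a UMI of it.

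RNA of other cell types was found in these cells. Neutrophil genes outside the rule summed to 168 CPM in untreated, 3932 in imiquimod and 74.8 in lesional cells, and to 93.7, 3987 and 84.0 in T cells. Fibroblast genes summed to 81.9, 1494 and 101 CPM, against 180, 1744 and 1101. Keratinocyte genes summed to 74.1, 32.2 and 150 CPM, against 229, 56.5 and 2105, and endothelial genes to 19.5, 45.1 and 449 CPM, against 38.2, 37.6 and 186. Of the endothelial list, Fabp4 had 164 of its 165 lesional UMIs in 1 cell. S100a8, the neutrophil alarmin, was found in 79 of 79 imiquimod cells, with 797 of 1513 UMIs in 1 cell. The 6 imiquimod cells with over 0.2% of UMIs from collagen and decorin genes or over 1% from S100a8 and S100a9 were kept. The 4 neutrophil and 6 fibroblast genes called higher after imiquimod moved with these sums, whose part in the other results was not tested.

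**Figure D5:**
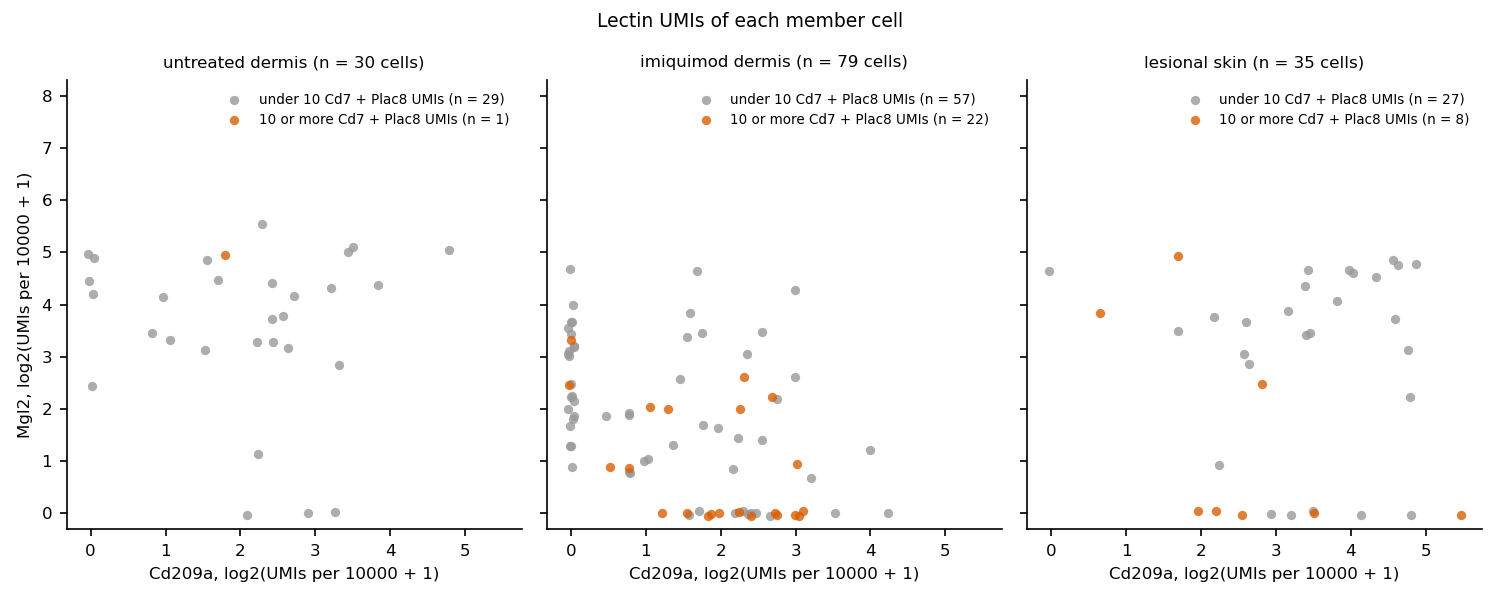
Cd209a (x axis) against Mgl2 (y axis) in each Cd209a Mgl2 cell (member) of the 3 libraries, as log2(UMIs per 10000 + 1), with a small jitter; orange points hold 10 or more UMIs of Cd7 and Plac8. Cells with at least 10 UMIs of Cd7 and Plac8 number 1 of 30, 22 of 79 and 8 of 35, and 12 of the 22 imiquimod cells without Mgl2 are among them.

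The cells can be split by Mgl2, a gene of the rule, into cells without a Mgl2 UMI, which entered through Cd209a alone (3 in untreated, 22 in imiquimod and 10 in lesional skin), and the rest. The values by this split are a description. Cd7, Plac8, Lyz2, Il1b and Ciita were chosen for it after their values were seen. Cd7, an immunoglobulin-family receptor of lymphocytes and some type 2 dendritic cells, was at 538 CPM without and 267 with Mgl2 after imiquimod, 2.01-fold (1.6 to 2.53), and at 627 and 126 CPM in lesional skin, 4.98-fold (3.42 to 7.33). Plac8 was at 781 and 354 CPM after imiquimod, 2.20-fold (1.81 to 2.67), and at 528 and 91.1 CPM in lesional skin, 5.80-fold (3.77 to 9.07). In untreated cells, with 3 without Mgl2, Plac8 was at 357 and 69.2 CPM and Cd7 at 198 and 130. Lyz2 was at 1175 and 1230 CPM without and with Mgl2 in imiquimod dermis but at 421 and 5782 in lesional skin. Il1b was at 637 and 867 CPM in imiquimod dermis, 1403 and 308 in lesional skin and 238 and 2095 in untreated dermis. The Il1b values rest on few cells. In lesional skin 1 cell held 71 of 285 Il1b UMIs and another 53, and in untreated dermis 4 cells held 364 of 490. Cells with at least 10 UMIs of the pair were 12 of 22 without and 10 of 57 with Mgl2 in imiquimod dermis, and 5 of 10 and 3 of 25 in lesional skin. T cells held 132 CPM of Cd7 in imiquimod dermis and 91.6 in lesional skin.

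Ranked across all genes in imiquimod dermis, 0 genes were higher and 9 lower without Mgl2 by the naming rule. They were Ear2, Cxcl16, Dok2, Plgrkt, Bcl2a1a, Mrc1, Hilpda, Fabp5 and Bcl2a1d. In lesional skin 7 of these 9 were also lower without Mgl2, 4 of them with the whole interval beyond 1.5-fold. Hilpda was higher there without than with Mgl2, at 99.0 and 61.6 CPM, as was Bcl2a1d at 132 and 83.0. Neither of those differences was beyond counting error. Mrc1 was at 37.0 CPM without and 164 with Mgl2, 4.44-fold lower (2.26 to 9.96), and at 16.5 and 311 CPM in lesional skin, 18.8-fold lower (5.10 to 157). Ear2, an eosinophil-type ribonuclease that some type 2 dendritic cells carry, had no UMI without Mgl2 in either library and was at 147 and 171 CPM with it. Ciita did not differ beyond counting error between cells without and with Mgl2, at 127 and 121 CPM in imiquimod dermis and 223 and 193 in lesional skin, a ratio of 1.06 (0.676 to 1.61) and 1.16 (0.713 to 1.82).

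Ccl17, a chemokine for CCR4-bearing T cells, was at 3.9 CPM in untreated, 444 in imiquimod and 6.07 in lesional cells, and T cells held 7.65, 10.1 and 3.32. Of its 414 imiquimod UMIs, 408 lay in 6 of 79 cells. Those 6 cells, chosen by Ccl17, had Cd209a at 23.2 CPM against 269 in the other 73, and Mgl2 at 429 against 338. They held 3.40-fold more Fabp5 (3.03 to 3.81), no Cd7 UMI against 373 CPM, and no Flt3 UMI. In the whole imiquimod library 22 kept cells had at least 20 Ccl17 UMIs, of which 6 were Cd209a Mgl2 cells, 8 C1q cells, 2 Ccr7 cells and 2 class II cells without lectin UMIs. Cx3cr1, the fractalkine receptor, had a like spread: 0 UMIs in untreated cells, 402 in 17 imiquimod cells with 386 in 7 of them, and 126 in 7 lesional cells with 92 in 1.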

How the data were processed

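RNA was counted in 5 droplet libraries (Chromium 3′ v3 chemistry, per the labels' protocols), 1 per group. The submitters' processing notes name CASAVA, Cell Ranger and the mm10 build, and the matrix headers give software version 3.0.2. Cell calling is not given in these sources. The deposited matrices hold raw UMI counts of 31053 genes per barcode, per the file headers and the values. The cells and gene lists were chosen with earlier results of these data known. UMIs of the chosen cells were summed per library and scaled to CPM, with exact Poisson intervals for levels, exact Clopper-Pearson intervals for shares and exact conditional binomial intervals for ratios (95%, counting error only). With 1 library per group no test was made.

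List medians use log2((CPM + 5)/(CPM + 5)), so they understate the change of low genes. The lists hold 634 different genes, of which 630 are in the files. Single genes were named when the ratio interval lay beyond 2-fold, with at least 50 CPM and UMIs in at least 10% of cells in the higher library, no cell with over 25% of its UMIs there, and no other cell type there over 5 times the level. Mitochondrial, ribosomal, haemoglobin, predicted, sex-linked and rule genes were not eligible, and of the rest the 10 highest and 10 lowest ratios were taken. A fixed set of markers was always given. Some genes of these sets are not reported here. Doublets were not removed. An alternative took out the top Scrublet scores, with 7 imiquimod cells among them. Untreated and imiquimod dermis shared 5 barcodes, 1 of them of a cell described here, and lesional skin shared none with either. Filters, rule limits, scaling and minimum counts were varied. Library totals were 3020790 UMIs in untreated dermis, 41258087 in imiquimod dermis and 34376558 in lesional skin. Promoters are from RefSeq (GRCm38.p6) and gene positions from GENCODE vM21. Python 3.11.15, numpy 2.4.6, scipy 1.17.1, pandas 2.3.3 and scanpy 1.11.5 were used.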

Additional observations from a re-analysis of the deposited data

Results flagged for a closer look

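In non-lesional epidermis from K5. Pp6fl/fl mice, a library outside the comparisons, 29 of 212 class II barcodes had at least 2 UMIs of Cd209a and Mgl2, with 54 Mgl2 and 24 Cd209a UMIs in all. All 29 had more than 1 Cd207 UMI, with Cd207, the langerin of Langerhans cells, at 2838 CPM and the adhesion molecule Epcam at 907 CPM, so the rule took none of them. Untreated wild-type epidermis had 0 such barcodes among its 4 class II barcodes. The result drew attention because lectin RNA appeared in data the comparisons did not use.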

How the results depend on the processing

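Of 104 counts of called genes recomputed under the alternatives, 91 stayed within 1.5 times. So did 556 of 588 list medians, 23 of 27 cell shares stayed inside their interval, and 1355 of 1434 single-gene values moved by less than 1 on the log2 scale. At most 3 genes were called the opposite way under any alternative. Keeping only cells with no C1q UMI gave shares of 2.11% in untreated and 0.381% in imiquimod dermis, and 120 genes higher and 90 lower after imiquimod. It gave 123 higher and 85 lower in lesional against untreated cells, and 228 higher in lesional against imiquimod cells. Between 32.9% and 61.0% of the calls were shared with it, the lowest of all settings. Requiring both lectins gave shares of 0.661% in imiquimod dermis and 0.905% in lesional skin. Totals without mitochondrial, ribosomal protein and haemoglobin genes gave 316 lower in lesional against imiquimod cells. Means over cells gave 326 higher in lesional against untreated cells, a minimum of 10 UMIs 623 higher in lesional against imiquimod cells, and a minimum of 50 UMIs 156 lower after imiquimod. A ratio past 2-fold with no interval gave 356 higher and 377 lower after imiquimod, and 500 and 244 in lesional against untreated cells. The median of resident macrophage genes turned positive after imiquimod with both lectins (0.29), with no C1q UMI (0.34) and with the reduced totals (0.25), and in lesional against untreated cells with no C1q UMI (0.17). The causes were not tested. Added after the data were seen, removing cells with fibroblast or neutrophil genes, splitting lesional cells by Xist and keeping cells with Mgl2 kept every count of calls within 1.5 times. Lesional cells with Xist gave 166 higher and 111 lower against untreated cells, and those without it 194 and 131. No paired analysis was possible because each group is 1 library. The 30 untreated cells, with 256271 UMIs, limit every comparison with them.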

Other observations

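MHC class I genes were also measured. After imiquimod 2 of 13 were higher and 4 lower, with a median log2 ratio of 0.04 against 0.10 for all genes. The immunoproteasome subunits Psmb8 and Psmb10 were 1.97-fold (1.53 to 2.57) and 5.56-fold (2.87 to 12.4) higher, and T cells moved the same way, by 2.51-fold and 2.98-fold. The heavy chain H2-D1 was at 2224 CPM in untreated and 1205 in imiquimod cells, 1.85-fold lower, with a T-cell ratio of 0.819. B2m, the light chain of class I, was 1.76-fold lower in lesional than in untreated cells, at 1130 and 1994 CPM, with a T-cell ratio of 0.799.

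Cd63, a late endosome tetraspanin, was at 74.1 CPM in untreated, 443 in imiquimod and 46.5 in lesional cells, 5.98-fold higher after imiquimod (3.78 to 10.0), with a T-cell ratio of 1.5. Ctsl, cathepsin L, was at 42.9, 206 and 78.9 CPM, 4.80-fold higher after imiquimod (2.62 to 9.78), with a T-cell ratio of 1.52. Ctsc, cathepsin C, was instead highest in lesional cells, at 431 CPM against 129 untreated and 192 imiquimod, 3.34-fold above untreated (2.31 to 4.98), with a T-cell ratio of 0.451. Ccl9, a CCR1 chemokine, was at 1132, 298 and 615 CPM, 3.79-fold lower after imiquimod, with T cells at 164, 183 and 21.8.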
